A study of Arabidopsis thaliana with 6 samples.

Results

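The genes described here were higher in cotyledons of the apl mutant than in wildtype cotyledons and lie outside a run of chromosome 1 genes that differed together. They are 79 of 14743 genes that the platform annotation names by an Arabidopsis locus code. The genes were selected on the measured values themselves. Each has a probe set paired with that gene alone, and the brightest such probe set was taken. Its mean over the apl arrays was at least 5 on the log2 scale, its apl minus wildtype difference was at least 0.9, and every apl array lay above every wildtype array. Of 105 genes that met these conditions, 23 from AT1G07650 to AT1G09230 were left out as the chromosome 1 run. A further 3 were left out by name, from a list of AT4G12490, AT4G22470, AT5G61890 and AT3G48740. Because the choice used the comparison of apl with wildtype, the values of the 79 genes in that comparison are a description of them and no evidence for it.

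The study measured total RNA on 1-colour Affymetrix arrays, with 3 arrays of apl and 3 of wildtype, which is labelled Col-0. The labels name neither the apl allele nor its background. In both groups, cotyledons were taken from seedlings grown for 6 days and were kept for 72 h in a medium with bikinin (10 µM), an inhibitor of GSK3-type kinases, the auxin 2,4-D (1.25 mg/L) and the cytokinin kinetin (0.25 mg/L). Nothing in the labels says that the arrays of a group came from separate cultures, so the spread between them may be technical.

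APL is a MYB-type transcription factor needed for phloem identity, and its loss in roots is known to disturb sieve element and companion cell formation. A culture with auxin, cytokinin and bikinin turns mesophyll cells of cotyledons into vascular cells by way of a cambium-like state. The 79 genes include members of families that are known for other processes. Low-oxygen response genes are transcribed when group VII ERF factors escape oxygen-dependent breakdown. Class III peroxidases are secreted enzymes that use hydrogen peroxide to cross-link or loosen the cell wall.

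The deposited values are log2 signals normalised by the authors with RMA, so 1 unit is a doubling of signal. The median signal of an array lay between 6.05 and 6.25 and its 25th percentile between 3.79 and 4.03. Over all 38408 probe sets, Pearson's r was 0.969 to 0.977 within groups and 0.949 to 0.974 between groups. No probe set is paired with APL, so the level of the mutated gene is not analysed here. The leaf genes RCA and LHCB4.1 were bright on all arrays, with mean signals of 10.1 and 9.05 in apl, against 10.2 and 8.90 in wildtype.

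The differences of the 79 genes ran from 0.90 to 5.41, with a median of 1.35, which is a 2.55-fold higher signal in apl. The median over all probe sets was 0.10. Their mean signal in apl ran from 5.01 to 11.2 with a median of 7.52, against 3.11 to 10.1 with a median of 5.67 in wildtype. In apl, 61 of the 79 lay above the median of every array, against 30 in wildtype. In wildtype, 5 had a mean under the 25th percentile of every array, against 0 in apl, so for those genes the wildtype level cannot be told from background. They are AT3G29970, AT2G17850, AT1G12805, AT5G13140 and AT3G22275, and each fold given for them is a ratio of signals, not a measured ratio of transcript, with its true size unknown. AT2G14247, AT4G26460, AT1G51850 and AT2G18980 had wildtype means of 3.84, 3.87, 3.87 and 3.98, within the range of the array 25th percentiles. Their wildtype levels may also be background. The arrays are of bulk tissue, so more cells of a type and more RNA per cell cannot be told apart for any of these genes.

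**Figure D1:**
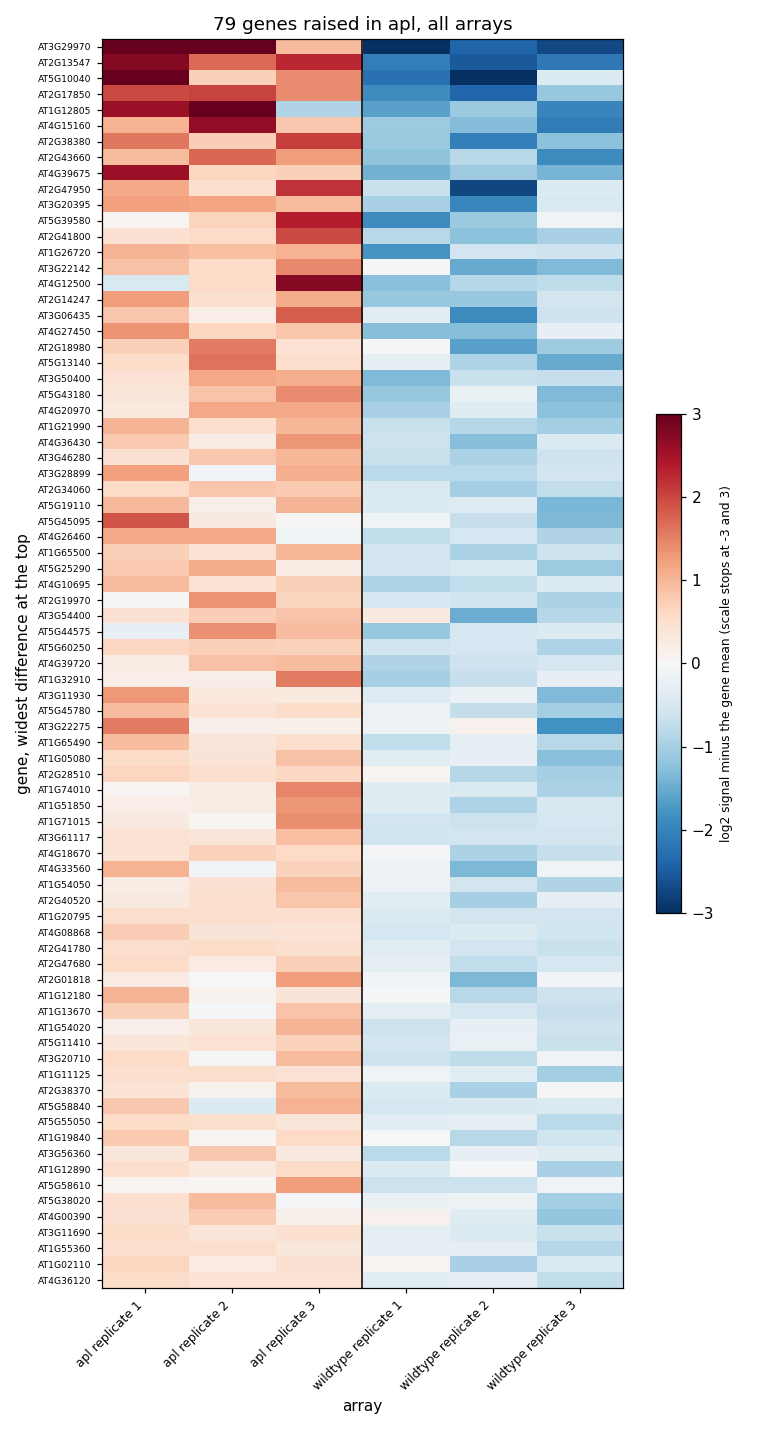
Log2 signal of each of the 79 genes minus that gene's mean over the 6 arrays, with apl replicates 1 to 3 at the left and wildtype replicates 1 to 3 at the right; the colour scale stops at -3 and 3. Genes run from the widest difference (5.41) at the top to the narrowest (0.90) at the bottom, and by the way they were chosen every gene is higher on all apl arrays.

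By limma with Benjamini-Hochberg adjustment over all probe sets, 10 of the 79 genes had an adjusted p under 0.05. This count is given as a description only, since the genes were chosen on the same difference. Of all probe sets, 0.0781% passed this test as higher in apl and 0.526% as lower. With the replicate number as a block, 15 of the 79 passed, 8 of them shared with the 10, and 0.211% of all probe sets were then called higher. Without the block, 77 of the 79 had an unadjusted p under 0.05, against 4.66% of all probe sets higher and 4.34% lower. Separation of all apl from all wildtype arrays, which each of the 79 has by choice, was met by 8.51% of the named genes. Over the 79 genes, the count fell to 1 without apl replicate 1, wildtype replicate 1 or wildtype replicate 2, and to 2 without wildtype replicate 3. Without apl replicate 3 it was 5, of which 3 were among the 10. Without apl replicate 2 it was 8, of which 6 were among the 10.

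The widest difference in signal belonged to AT3G29970, a gene of the B12D type, a family of small proteins first described in barley grain. Its log2 signal was 9.92, 10.07 and 7.37 in apl replicates 1 to 3, against 3.40, 4.00 and 3.71 in wildtype. All wildtype values were close to the dim end of the arrays, and apl replicate 3 stood well below the other apl arrays. The difference was 5.41 (SE 0.69), a signal ratio of 42.7-fold, and was 78.2-fold without apl replicate 3, both against a wildtype level that may be background.

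AT2G13547, for which no role is given here, had 11.17, 10.13 and 10.69 in apl, against 6.34, 5.91 and 6.28 in wildtype. The arrays of each group lay close together and the groups were far apart. Its difference of 4.49 (SE 0.30) is a 22.4-fold higher signal in apl.

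AT1G12805 was uneven among the apl arrays. Its signal was 7.27, 7.73 and 3.79 in apl, against 3.07, 3.57 and 2.70 in wildtype. The third apl array was only just above the highest wildtype array, and the wildtype level may be background. The signal ratio of 8.86-fold was 20.9-fold when apl replicate 3 was left out, and leaving out replicate 2 of apl gave 5.33-fold.

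AT4G39675 had 7.97, 6.04 and 6.12 in apl, against 3.98, 4.31 and 4.01 in wildtype, so apl replicate 1 stood above the other apl arrays. Its 6.12-fold difference was 3.95-fold without that array. AT2G47950 had 8.0, 7.36 and 9.01 in apl, against 6.17, 4.11 and 6.45 in wildtype, where replicate 2 was low. Its 5.84-fold difference was 3.51-fold without that wildtype array.

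**Figure D2:**
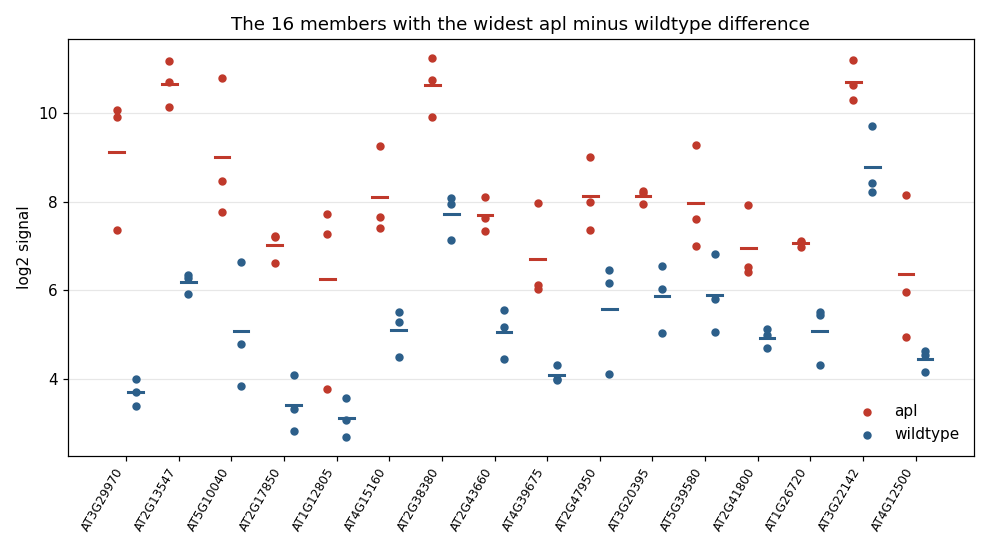
Log2 signal of the 16 genes with the widest difference, with the 3 apl arrays (red, left) and the 3 wildtype arrays (blue, right) as points and the group mean as a line. AT3G29970 has apl points from 7.37 to 10.07 above wildtype points from 3.40 to 4.00, and the apl points of AT1G12805 spread from 3.79 to 7.73.

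The low-oxygen response was represented by 4 of the 79 genes. AT2G17850, which encodes a rhodanese-type (sulfurtransferase-like) protein, had 7.21, 7.23 and 6.62 in apl, against 3.32, 2.83 and 4.09 in wildtype. The apl arrays lay within a narrow range and well above all wildtype arrays. The difference was 3.61 (SE 0.35), a signal ratio of 12.2-fold against a wildtype level that may be background.

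AT5G10040, a gene of unassigned function, had 10.80, 7.76 and 8.47 in apl, against 4.8, 3.83 and 6.63 in wildtype. Both groups were widely spread, and the highest wildtype array was 1.13 log2 units below the lowest apl array. Its 15.1-fold difference became 8.15-fold if apl replicate 1 was left out and 23.3-fold if apl replicate 2 was. Leaving out wildtype replicate 2 gave 9.80-fold, and leaving out wildtype replicate 3 gave 25.9-fold.

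AT4G27450, an aluminium-induced type protein, had 10.69, 9.97 and 10.16 in apl, against 8.04, 8.05 and 9.08 in wildtype, a difference of 1.88 (SE 0.35). AT4G33560 had 9.76, 8.62 and 9.41 in apl, against 8.56, 7.35 and 8.58 in wildtype. Its lowest apl array lay only just above its highest wildtype array, and the difference was 1.10 (SE 0.43).

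The list of low-oxygen response genes used here has 41 genes, of which 18 were measured under a single-gene probe set. Of these 18, 16 had a difference above 0 with a median of 0.92, beside 64% above 0 and a median of 0.10 over all probe sets. The 18 genes varied together between arrays, so they are not separate observations. Replicate 2 was the lowest array for 14 of them in apl and 12 in wildtype, and wildtype replicate 3 was the highest for 14. By limma with Benjamini-Hochberg adjustment, AT2G17850 alone passed as higher and 0 passed as lower. Leaving aside the 4 genes chosen by their difference, 12 of 14 were above 0 with a median of 0.72. Of those 14, 0 passed by limma, and 5 had an unadjusted p under 0.05, all higher in apl. Over all probe sets, 4.66% were higher and 4.34% lower at that p. With the replicate block, CML38, a calmodulin-like calcium sensor, passed with a limma adjusted p of 0.0387, and AT4G10265 with 0.0489.

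CML38 had 8.10, 6.64 and 8.60 in apl, against 6.10, 5.00 and 7.22 in wildtype, so the groups overlapped while each replicate number had the higher signal in apl. AT4G10265 had 5.41, 4.66 and 6.32 in apl, against 3.94, 2.53 and 4.89 in wildtype, with the same ordering by replicate. Its wildtype mean of 3.79 may be background. In 3 of the 14 genes all apl arrays lay above all wildtype arrays, which 8.51% of the named genes did. In 1, AT3G03270, they lay below, which 6.6% of the named genes did. Of the 3, AT5G66985 and AT1G19530 had wildtype means of 3.34 and 3.36, which cannot be told from background. Among the 9 of the 14 with a group mean over the array median, 1 lay above, AT3G10020, and 1 below, AT3G03270. The 2 genes of the 18 with a difference below 0 were AT3G03270 and AT5G45960.

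**Figure D3:**
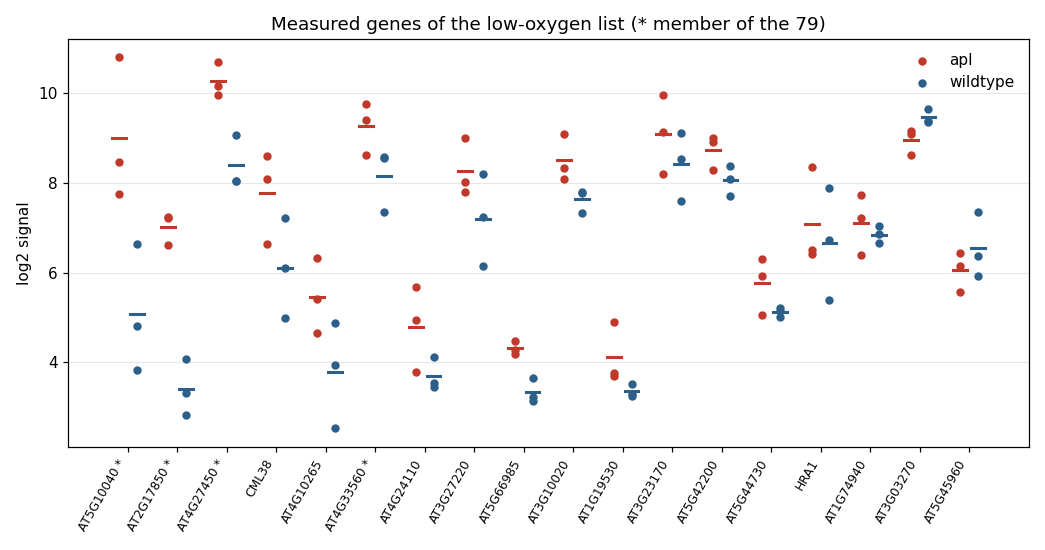
Log2 signal of the 18 measured genes of the low-oxygen list, ordered by difference, with apl arrays in red at the left and wildtype arrays in blue at the right of each gene; lines are group means and asterisks mark the 4 genes among the 79. Of the 18 genes, 16 have a higher mean in apl, and most of those outside the 4 have overlapping arrays.

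The class III peroxidases gave 5 of the 79 genes. AT2G38380 had 10.75, 9.92 and 11.24 in apl, against 8.07, 7.12 and 7.95 in wildtype. All apl arrays were more than 1 log2 unit above the highest wildtype array. Its difference was 2.92 (SE 0.40), or 7.57-fold.

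AT5G39580 was more variable, with 7.0, 7.60 and 9.29 in apl, against 5.05, 5.81 and 6.82 in wildtype. Replicate 3 was the highest array in both groups. The 4.20-fold difference was 2.65-fold without apl replicate 3.

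AT4G36430 had 10.74, 10.19 and 11.28 in apl, against 9.31, 8.68 and 9.55 in wildtype. AT2G34060 had 8.52, 8.76 and 8.73 in apl, against 7.48, 6.92 and 7.21 in wildtype, and was the most even of the 5 among apl arrays. AT2G18980 had 5.62, 6.45 and 5.33 in apl, against 4.87, 3.27 and 3.81 in wildtype. Their differences were 1.56 (SE 0.35), 1.47 (SE 0.21) and 1.82 (SE 0.46) in that order.

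Of the 73 peroxidase genes listed, 64 were measured, with a median difference of 0.095, beside 0.10 over all probe sets. By limma with Benjamini-Hochberg adjustment, AT2G38380 and AT2G34060 passed as higher and 0 as lower. With the replicate block, AT2G38380 kept its call, AT2G34060 lost it (limma adjusted p = 0.0655), and AT4G36430 and AT5G39580 passed (limma adjusted p = 0.0324 each). Without the 5 chosen genes, 36 of 59 were above 0 with a median of 0.082, and 0 passed by limma. At an unadjusted p under 0.05, 3 of the 59 were higher and 4 were lower, beside 4.66% and 4.34% of all probe sets. Most of the 59 were dim, and 18 had a group mean over the array median. Of those 18, 12 were above 0 with a median of 0.24, and 1 was higher and 3 lower at that p. Of the 59, AT3G49110 passed with the block as higher (limma adjusted p = 0.0213) and AT3G49960 as lower (limma adjusted p = 0.0419), where 0.885% of all probe sets were lower.

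AT3G49110, also known as PRX33, had 4.91, 6.00 and 7.03 in apl, against 2.73, 3.31 and 4.82 in wildtype. Its mean in wildtype, 3.62, cannot be told from background either, so no fold is given. It met the 3 numerical conditions and is not among the 79 because the annotation gives it a symbol in place of a locus code. It has a closely similar neighbouring copy, PRX34, so its signal may hold that of both. AT3G49960 had 6.03, 5.86 and 5.25 in apl, against 7.66, 7.87 and 6.59 in wildtype, with no overlap between the groups. AT5G66390, also known as PRX72 and linked to lignin formation, had 7.90, 9.61 and 7.45 in apl, against 9.59, 11.35 and 10.56 in wildtype, with arrays that overlapped slightly.

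**Figure D4:**
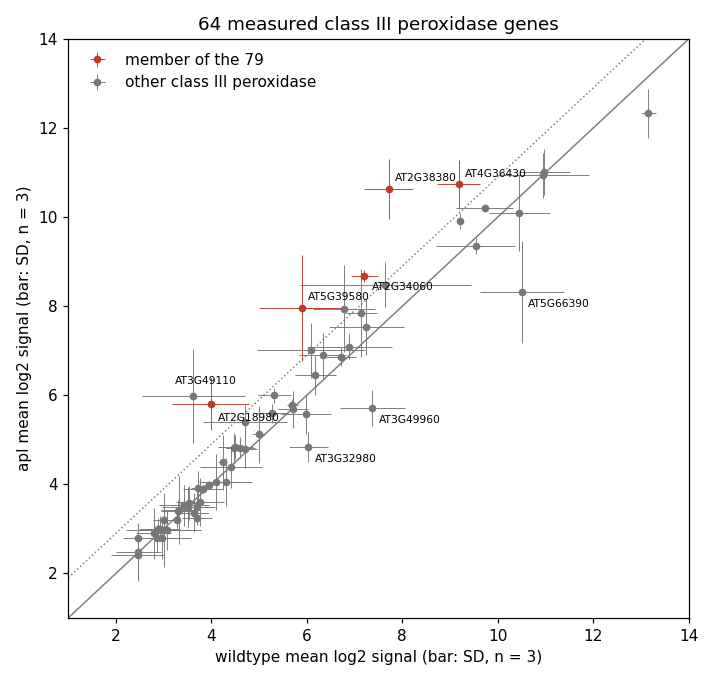
Mean log2 signal in apl (vertical) against wildtype (horizontal) for the 64 measured class III peroxidases, with SD over 3 arrays as bars, the solid line at equal signal and the dotted line at a difference of 0.9. The 5 genes among the 79 (red) lie above the dotted line with differences of 1.47 to 2.92, and most of the other 59 lie near the solid line.

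Proteins of the lipid transfer type, which are small secreted proteins that bind lipids, gave 3 of the 79 genes. AT4G15160 had 7.65, 9.26 and 7.40 in apl, against 5.51, 5.29 and 4.5 in wildtype, an 8.02-fold difference with well separated groups. AT3G22142 had 10.62, 10.28 and 11.19 in apl, against 9.70, 8.22 and 8.42 in wildtype, or 3.78-fold.

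AT4G12500, the third of them, had 4.96, 5.97 and 8.15 in apl, against 4.16, 4.55 and 4.63 in wildtype. Its apl arrays were far apart, and the lowest was only a little above wildtype. The 3.77-fold difference was 2.03-fold when apl replicate 3 was left out, and leaving out replicate 1 of apl gave 6.13-fold.

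Secreted and cell wall proteins of other families gave 8 genes, with differences of 0.96 to 2.63. AT2G43660, with an X8 domain that binds carbohydrate, had 7.33, 8.10 and 7.63 in apl, against 5.17, 5.55 and 4.45 in wildtype, a 6.19-fold difference. AT2G41800, of the DUF642 wall protein family, had 6.41, 6.53 and 7.93 in apl, against 5.12, 4.70 and 4.98 in wildtype, or 4.06-fold. AT5G13140, an Ole e 1-type protein, had 4.86, 5.96 and 4.84 in apl, against 4.05, 3.40 and 2.80 in wildtype, a signal ratio of 3.49-fold against a level that may be background. In all 3 the wildtype arrays lay below the array medians.

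The other genes of this group were nearer to the minimum difference. AT5G19110 and AT3G54400 encode proteins of the aspartic protease type and differed by 1.45 (SE 0.36) and 1.37 (SE 0.42). AT2G19970, of the CAP family that holds PR-1, differed by 1.37 (SE 0.34), and AT4G18670, a leucine-rich repeat extensin, by 1.12 (SE 0.27). AT5G58840, a subtilisin-type protease, had 7.84, 6.63 and 8.09 in apl, against 6.51, 6.56 and 6.60 in wildtype, so its second apl array was only 0.035 above the highest wildtype array.

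GDSL-type lipases, esterases of the secretory path, gave 3 genes. AT3G50400 had 7.82, 8.56 and 8.48 in apl, against 6.08, 6.74 and 6.70 in wildtype. Its apl minus wildtype difference was nearly the same for each replicate number, at 1.74, 1.83 and 1.78. AT1G54020 and AT5G55050 differed by 1.0 (SE 0.27) and 0.96 (SE 0.21).

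Transcription factor and regulator families gave 8 genes, with differences of 0.93 to 1.72 and a median of 1.09. AT4G20970, a bHLH factor, had 7.30, 8.15 and 8.14 in apl, against 6.02, 6.63 and 5.78 in wildtype. AT4G39720, of the VQ family that binds WRKY factors, had 7.47, 8.11 and 8.16 in apl, against 6.34, 6.62 and 6.73 in wildtype. Their groups, separate by choice, lay 0.67 and 0.74 apart, with differences of 1.72 (SE 0.33) and 1.35 (SE 0.25).

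AT2G28510, a Dof factor, had 11.28, 11.12 and 11.27 in apl, against 10.72, 9.79 and 9.65 in wildtype. AT1G12890, an AP2/ERF factor, had 10.05, 9.82 and 10.10 in apl, against 9.12, 9.49 and 8.54 in wildtype. In both, the apl arrays lay closer together than the wildtype arrays. The differences were 1.17 (SE 0.30) and 0.94 (SE 0.27).

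AT3G22275, of the JAZ repressor family of jasmonate signalling, had 5.94, 4.55 and 4.53 in apl, against 4.23, 4.52 and 2.57 in wildtype, and the groups were separated by 0.019. Its signal ratio of 2.36-fold was 1.55-fold without wildtype replicate 3, and the wildtype level may be background. AT2G01818 (PLATZ type), AT5G58610 (PHD finger) and AT4G00390 (GeBP type) differed by 1.01 (SE 0.45), 0.93 (SE 0.36) and 0.93 (SE 0.35).

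RING-type proteins, most of which act as ubiquitin ligases, gave 2 genes. AT3G20395 had 8.24, 8.19 and 7.95 in apl, against 6.03, 5.04 and 6.54 in wildtype, or 4.77-fold. AT5G60250 had 9.03, 9.14 and 9.12 in apl, against 7.81, 7.92 and 7.49 in wildtype, or 2.56-fold. In both the apl arrays were tightly grouped, and the groups lay 1.41 and 1.11 apart.

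F-box type proteins, the substrate-binding parts of SCF ubiquitin ligases, gave 5 genes with differences of 0.99 to 1.69. AT1G21990 had 7.94, 7.42 and 7.90 in apl, against 6.24, 6.06 and 5.88 in wildtype. AT1G20795 had 6.14, 6.12 and 6.11 in apl, against 5.17, 5.05 and 5.02 in wildtype, and its apl arrays had the closest values of these 5. AT5G25290, AT1G05080 and AT3G20710 differed by 1.42 (SE 0.29), 1.21 (SE 0.31) and 0.99 (SE 0.31).

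Protein kinase families gave 4 genes. AT3G46280 had 8.78, 9.14 and 9.32 in apl, against 7.66, 7.37 and 7.70 in wildtype, a difference of 1.5 (SE 0.22). The leucine-rich repeat receptor kinases AT5G45780 and AT1G51850 differed by 1.26 (SE 0.27) and 1.17 (SE 0.35). AT5G11410 differed by 1.0 (SE 0.21).

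Small heat-shock type proteins gave 2 genes, AT1G54050 and AT1G12180, which differed by 1.09 (SE 0.28) and 1.01 (SE 0.31). Enzymes of other kinds gave 3 genes. The acyltransferase AT1G32910 had 5.91, 5.88 and 7.27 in apl, against 4.71, 5.01 and 5.47 in wildtype. The strictosidine synthase-like AT1G74010 differed by 1.17 (SE 0.39) and the methyltransferase AT5G38020 by 0.93 (SE 0.34).

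No role is given here for 32 of the 79 genes, counting AT3G29970, of which only the B12D family is named. The differences of the 32 had a median of 1.25. Beyond those above, AT1G26720 had 7.09, 6.97 and 7.11 in apl, against 4.31, 5.51 and 5.45 in wildtype. AT2G14247 had 6.04, 5.26 and 5.90 in apl, against 3.65, 3.64 and 4.23 in wildtype, a level that may be background. AT3G06435 had 10.43, 9.78 and 11.40 in apl, against 9.26, 7.69 and 8.97 in wildtype. The first 2 had groups 1.46 and 1.03 apart, while AT3G06435 had arrays that varied by over 1 log2 unit in each group.

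A further 17 of these genes had differences of 0.92 to 1.77, which is 1.89-fold to 3.40-fold, with apl means of 5.30 to 10.1, against wildtype means of 3.87 to 8.84. They are AT5G43180, AT3G28899, AT5G45095, AT4G26460, AT4G10695, AT5G44575, AT3G11930, AT1G71015, AT3G61117, AT2G40520, AT4G08868, AT2G47680, AT1G13670, AT1G11125, AT1G19840, AT3G56360 and AT3G11690. None of the 17 passed limma's test with or without the replicate block.

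Within apl, replicate 3 was the highest array for 33 of the 79 genes, replicate 1 for 25 and replicate 2 for 21, and replicate 2 was the lowest for 38. Taken by replicate number, the median difference was 1.13, 1.23 and 1.56 for numbers 1 to 3, beside 0.093, 0.103 and 0.094 over all probe sets. Replicate numbers differed most for AT5G10040, at 5.99, 3.93 and 1.84, and for AT1G12805, at 4.20, 4.16 and 1.08. The median SD between arrays of the 79 genes was 0.447 in apl and 0.380 in wildtype, against 0.301 and 0.293 over all probe sets. In 17 genes the groups were at least 1 log2 unit apart, and in 6 they were under 0.1 apart.

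The 79 genes were spread over all 5 chromosomes, with 20, 16, 14, 14 and 15 on chromosomes 1 to 5. As a share of the named genes on each chromosome outside those left out, these are 0.527%, 0.710%, 0.462%, 0.648% and 0.436%, beside 0.538% overall. By gene order in the RefSeq table of TAIR10.1, 4 pairs lay close together. AT2G38370 and the peroxidase AT2G38380 were next to each other, as were AT1G65490 and AT1G65500. On the other side of AT2G38380 lies AT2G38390, also a class III peroxidase. Its means of 2.80 in apl and 2.46 in wildtype cannot be told from background.

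AT2G38370 had 7.52, 7.21 and 8.07 in apl, against 6.70, 6.13 and 7.06 in wildtype, a difference of 0.97 (SE 0.32). AT1G65500 had 10.29, 10.00 and 10.58 in apl, against 9.03, 8.63 and 8.94 in wildtype. AT1G65490 had 5.77, 5.20 and 5.37 in apl, against 4.11, 4.58 and 4.00 in wildtype. In all 3 genes the groups did not overlap, which was a condition of the choice. The next gene along, AT1G65510, is not among the 79, with a difference of 0.84.

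AT2G41780 differed by 1.03 (SE 0.18) and lay 1 gene from AT2G41800. The gene between them, AT2G41790, had 10.44, 10.51 and 10.13 in apl, against 10.47, 10.66 and 10.23 in wildtype, with overlapping arrays. AT1G54020 and AT1G54050 had 2 genes between them, which are not analysed here. AT4G12490, a lipid transfer type gene left out by name, was the second gene before AT4G12500 and had 11.94, 12.60 and 12.80 in apl, against 9.69, 10.05 and 10.50 in wildtype. It passed by limma with an adjusted p of 0.0303 and a difference of 2.36. Genes of this kind lie in similar tandem copies, so probe sets may share signal between them.

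Among genes within 2 positions of any of the 79, 171 others were measured. Their median difference was 0.11 and 69.0% were above 0, beside 0.10 and 64% over all probe sets. By limma with Benjamini-Hochberg adjustment, 1 passed as higher, AT4G12490, and 1 as lower. The lower one, AT3G20380, lies near the RING-type gene AT3G20395 and had 4.43, 4.88 and 4.03 in apl, against 6.15, 6.10 and 6.26 in wildtype (difference -1.72, limma adjusted p = 0.0418).

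**Figure D5:**
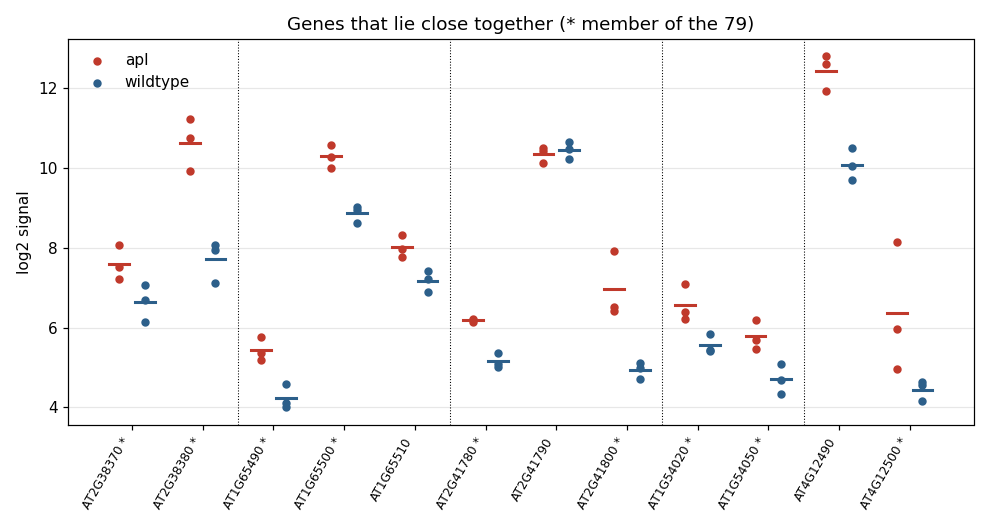
Log2 signal of genes that lie within a few positions of one another, with apl arrays in red at the left and wildtype arrays in blue at the right of each gene; lines are group means, dotted lines part the clusters and asterisks mark genes among the 79. The genes among the 79 are separated by the way they were chosen; of the others shown, AT1G65510 (difference 0.84) and AT4G12490 (2.36) have separate groups and AT2G41790 (-0.09) has overlapping ones.

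The limits of the choice pass through closely similar genes. AT4G36120, AT1G02110 and AT1G55360 were the nearest inside the minimum difference, at 0.90, 0.90 and 0.91, while AT3G22100, AT2G23321 and AT1G26730 were the nearest outside, at 0.89, 0.87 and 0.87. AT1G26730 is the gene next to AT1G26720. At the minimum level, AT3G22275, AT1G51850 and AT3G20710 had apl means of 5.01, 5.04 and 5.19, while AT1G23770, AT4G22390 and AT4G32630 fell outside with 4.86, 4.77 and 4.75.

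At the condition on overlap, AT3G22275, AT4G00390 and AT5G58840 were inside by 0.019, 0.034 and 0.035. AT1G52900, AT5G23480 and AT4G29610 fell outside, with a lowest apl array under the highest wildtype array by 0.01 or less. Of genes that missed 1 condition alone, 35 missed the condition on overlap, 15 the level, and 13 the difference while reaching 0.8. Leaving out apl replicate 2, 157 genes met the conditions, 74 of them among the 79, and leaving out wildtype replicate 1, 148 did, 77 of them among the 79.

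Markers of vascular cells and of other responses were set beside these genes. Apart from the low-oxygen and peroxidase lists, 10 lists cover jasmonate, salicylic acid defence, iron, phosphate, phloem, xylem, photosynthesis, stomata, cell division and stably expressed genes. They hold 119 genes, counting the xylem peroxidase PRX66, which is also on the peroxidase list. Apart from PRX66, 27 were measured, and no phosphate gene was. None of the 27 is among the 79, and by limma with Benjamini-Hochberg adjustment 0 passed. Of 13 jasmonate genes 1 was measured, PDF1.2, with means of 2.09 in apl and 1.78 in wildtype. Of 17 salicylic acid defence genes 1 was measured, so neither list can speak for its response. At an unadjusted p under 0.05, 3 of the 27 were higher in apl and 3 were lower. Over all probe sets the shares were 4.66% and 4.34%. The counts of measured genes here leave PRX66 to the peroxidase list.

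Of 20 xylem genes 4 were measured, IRX10, IRX15, IRX15-L and PRX66, and all 4 had lower means in apl, with differences of -2.06 to -0.83. Their summed linear signal was 5247 to 12790 over the apl arrays, against 13696 to 18734 over the wildtype arrays. Of 23 phloem genes 6 were measured, 5 with a difference above 0, and their summed signal was 6599 to 8531 in apl, against 3533 to 4728 in wildtype. These 6 include SWEET11, the AT3G48740 left out by name above. Without it, a choice made after the values were seen, the sums were 5074 to 5964 in apl, against 3405 to 4005 in wildtype. Such sums weigh the brightest genes most, here CLE44, with a mean of 11.6 in apl, against 10.9 in wildtype. CLE44 differed by 0.70 with separate groups. CLE41, OPS and PEAR2 differed by 0.47, 0.55 and 0.25 with overlapping arrays, and CLE45 was lower in apl, by -1.32. None of these 10 genes passed by limma, and the defining phloem and xylem markers without a single-gene probe set are not analysed here. The part of these cell types in the levels of the 79 genes was not tested.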

How the data were processed

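Total RNA of 3 apl and 3 wildtype samples was hybridised 1 sample to an array. The deposited log2 values of 38408 probe sets were made by the authors with RMA, per the submitters' processing notes, which give no version. RMA corrects background, equalises arrays and summarises probes, and it draws in the differences of dim transcripts. Which arrays entered RMA together is not stated. RMA has no detection call, and the number of arrays limits the precision. Genes were named from GEO's platform annotation, in which 16722 probe sets have 1 gene, 759 several and 20927 none. The RefSeq table of TAIR10.1 gave names and gene order, and all 79 genes matched it.

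All probe sets were fitted with limma 3.58.1 (lmFit and eBayes) in R 4.3.3, with Benjamini-Hochberg adjustment over all of them and a threshold of 0.05, after a test on simulated data. SE is limma's moderated standard error. Python 3.11.15, pandas 2.3.3 and matplotlib 3.10.9 made the summaries and figures. Replicate numbers pair the arrays by the data. Arrays with equal numbers deviated together from their group means (r of 0.40 to 0.45 over probe sets). Arrays with other numbers gave -0.29 to -0.16. Centring each group on its mean pushes these below 0 when the first are positive, so they add no evidence of pairing. Alternatives were the replicate block, quantile normalization, median centring, a variance trend with robust prior, a filter on dim probe sets at the 25th percentile, averaging the probe sets of a gene, an adjusted p under 0.10, other minimums, and leaving out each array.

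The genes and the 12 lists of locus codes (low oxygen, class III peroxidase, jasmonate, salicylic acid defence, iron, phosphate, phloem, xylem, photosynthesis, stomata, cell division, stably expressed genes) were chosen with earlier results of these data known. The families were assigned from textbook knowledge after the values were seen. Genes named were those that passed the test, those with the widest differences, those nearest each limit, list members, shared families, near neighbours, and those most or least alike between replicate numbers. AT1G26720, AT3G06435, AT5G66390 and the 17 genes listed together were named after their values were seen. No sequences are shown.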

Additional observations from a re-analysis of the deposited data

How the results depend on the processing

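The limits are the 3 arrays per group, the missing detection call, and selection of the 79 genes on the comparison itself. None of the 68 single genes recomputed, nor the median of the 79, changed direction; the other named genes, such as RCA and CML38, were not put through all of these alternatives. With the replicate block, 15 of the 79 genes passed limma's test, as did 81 probe sets higher in apl, 340 lower and 8 genes of the 12 lists, against 10, 30, 202 and 3 without the block. The block took 2 of the 10 genes out, AT3G46280 and AT2G34060. A variance trend with robust prior gave 18 of the 79 genes, 98 higher, 314 lower and 5 list genes. Without dim probe sets 61 passed as higher. At an adjusted p under 0.10, 22 of the 79 genes, 97 higher and 321 lower probe sets passed. Leaving out 1 array in turn gave 1 to 8 of the 79 genes, 1 to 22 higher and 20 to 308 lower probe sets, and 0 to 2 list genes. It left 92 to 157 genes that met the conditions, 64 to 77 of them among the 79, and a median difference of 1.23 to 1.40. The cause of these shifts was not tested. Quantile normalization and median centring each left 61 genes that met the conditions, all among the 79, with 9 and 8 passing. Minimum differences of 0.8 and 1.0 gave 92 and 61 genes, and a minimum level of 6 or none gave 64 and 94.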
